A study of Homo sapiens with 4 samples.

Results

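The MYC family and the MAX network were followed as 10 genes, taken by symbol from the 26364 genes listed in every sample. They were the MYC genes MYCN, MYC and MYCL, their shared partner MAX, the genes MXD1, MXD3, MXD4, MXI1 and MNT, whose products compete for MAX, and MLX, which encodes a MAX-like protein. MYC proteins bind DNA as dimers with MAX, preferentially at the E-box CACGTG, and activate genes of growth and ribosome production. The MXD proteins, MXI1 and MNT form dimers with MAX at the same motif and recruit the SIN3 corepressor with its histone deacetylases. MLX pairs with the glucose-responsive factors MLXIP (MondoA) and MLXIPL (ChREBP), and with some of the MXD proteins and MNT. In neuroblastoma, amplified MYCN usually takes the place of MYC as the expressed family member, and low MYC in MYCN-amplified tumors is well known.

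The cells were BE(2)C, a human neuroblastoma line with amplified MYCN, sequenced in 2 groups of 2 samples. The control group (Ctrl) was transfected with a non-targeting siRNA, and the knockdown group (MYCN KD) with one against MYCN. Both groups thus carried the amplified gene, both were transfected, and the sample labels call the Ctrl genotype wild type. The labels give 80 nM siRNA for 6 h with RNA taken on the next day. The study's methods give a lower concentration as the final one, after medium was added at 6 h. The data come from 1 line, and the labels do not say whether the replicates were separate cultures, so p-values measure the spread between these samples only. A change in bulk RNA also cannot tell fewer cells expressing a gene from less RNA per cell.

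Values were RPKM, reads of a gene scaled to its length and to the total of reads, which the authors had corrected for unwanted variation before deposit. The totals of reads recovered from the RPKM steps were 34142988 and 31976939 in Ctrl against 29055819 and 30941778 in MYCN KD. The study's methods calculate RPKM from counts normalized with RUVSeq, so reads recovered here are adjusted counts and may differ from sequenced reads. Between the groups the replicates were close to mirror images of each other: where replicate 1 lay above the mean of one group it lay below the mean of the other for 99.4% of tested genes and for 10 of 10 network genes. The 4 samples therefore hold less independent replicate error than their number implies, and every p-value below carries this limit. Of 10 adrenergic neuroblastoma markers all 10 were tested, with 4 higher, 2 lower and 4 not past the threshold (over all tested genes 25.3% were higher and 22.8% lower), and their summed RPKM was 2149.9 to 2395.2 in Ctrl and 2921.9 to 3237.6 in MYCN KD. Of 10 mesenchymal or fibroblast markers 6 were tested, with 3 higher, and their sum was 276.3 to 278.4 in Ctrl and 311.1 to 314.7 in MYCN KD, with PRRX1 listed at 0. Most of that sum was THY1 (mean 211.9 in Ctrl, 250.3 in MYCN KD), while TWIST1 had a lower mean in MYCN KD (47.6 and 40.6). Blood cell markers summed to 1.54 to 1.77 over the 4 samples, with HBB at 0. Endothelial markers summed to 0.291 and 0.367 in Ctrl against 0.644 and 0.515 in MYCN KD, and epithelial markers to 0.214 and 0.190 against 0.449 and 0.435, with KRT5 at 0, so both low sums were higher in the knockdown samples. The part of these shifts in the changes described here was not tested.

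Among the MYC genes, MYCN fell by a moderate amount while MYC, nearly silent in Ctrl, rose by the highest factor of the network. MAX fell beside MYCN in about the same proportion. The genes encoding competitors of MYC split: MXD3 and MXD4 rose, MXI1 fell, and MXD1 and MNT did not pass the test. MLX, the most abundant network gene after MYCN, differed by less than its replicate spread. In limma with Benjamini-Hochberg adjustment over the 11411 genes whose mean RPKM reached 1, 9 of the 10 genes were tested, and at an adjusted p under 0.05, 3 rose and 3 fell on knockdown. Over all tested genes the shares called were 25.3% and 22.8%. Both counts of network genes are near that background. Of the 9 tested genes, 4 had both MYCN KD values above both Ctrl values and 4 had both below, where 40.4% and 35.8% of all tested genes did so.

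**Figure D1:**
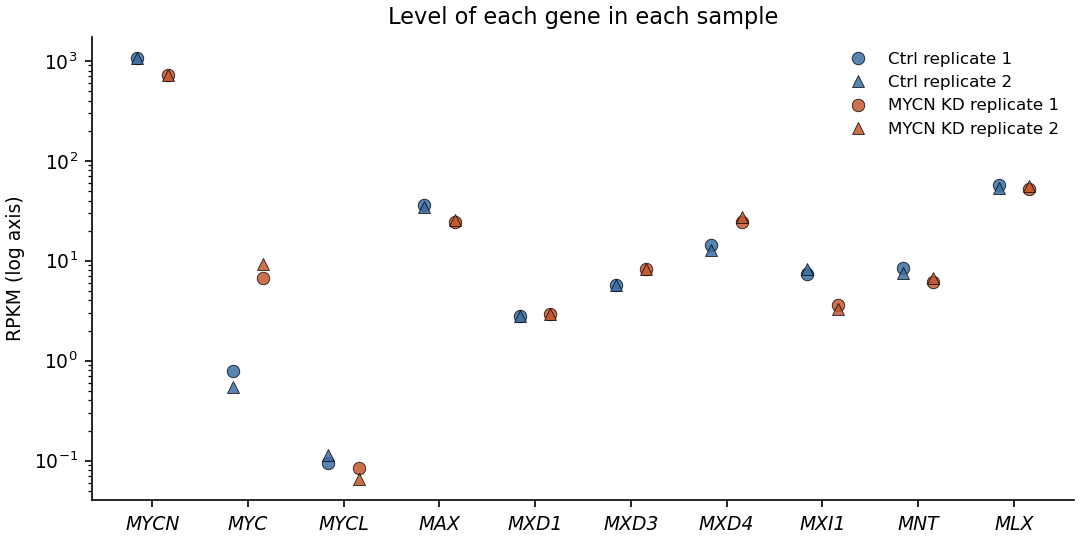
RPKM of the 10 genes on a log axis in each of the 4 samples (blue, Ctrl; orange, MYCN KD; circles, replicate 1; triangles, replicate 2). MYCN lay between 718.0 and 1073.0 in every sample, MYC rose from under 1 in Ctrl to 6.73 and 9.32 in MYCN KD, and MLX overlapped between the groups.

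MYCN, the siRNA target and the amplified driver of this line, spans 16080672 to 16087129 of chromosome 2 (GRCh37, plus strand, 3 exons). Its RPKM was 1067.9 and 1073.0 in Ctrl against 720.2 and 718.0 in MYCN KD. The groups did not overlap, and the replicates of each group were nearly equal. The mean went from 1070.5 ± 3.65 to 719.1 ± 1.53 (SD, n = 2 per group), a ratio of 0.672. The log2 fold change was -0.57 (SE 0.0286, 95% interval -0.66 to -0.49, limma adjusted p = 0.00361). MYCN thus kept the highest level of the network by far: among all listed genes it ranked 43 and 40 in Ctrl against 59 and 62 in MYCN KD. The reads behind these values ranged from 63572 to 110768. Of its exon bases, 98 (3.6%) are shared with MYCNOS on the opposite strand, and the strand setting of the counting is not given in the sources used here.

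The window of 250 bases before the MYCN start is shown because it holds, in capitals, the letters TTTGGCGC, the core recognised by E2F factors, which drive genes of S phase and are known to act on this promoter. The window (RefSeq, GRCh38.p14, plus strand, chr2:15940300-15940549) has these letters 176 bases before the start. Of 35116 promoter windows of the same length, 0.55% hold them on either strand. The E-box CACGTG was not among the letters of this window.
MYCN: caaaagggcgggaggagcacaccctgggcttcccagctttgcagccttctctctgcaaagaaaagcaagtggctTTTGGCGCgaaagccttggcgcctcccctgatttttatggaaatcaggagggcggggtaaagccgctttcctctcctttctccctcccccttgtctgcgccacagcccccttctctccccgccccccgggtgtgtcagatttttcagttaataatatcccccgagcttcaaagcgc

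MYC, the family member that drives proliferation in most tissues, lies on chromosome 8 from 128747680 to 128755197 on the plus strand, with 3 exons. Its RPKM was 0.780 and 0.542 in Ctrl against 6.73 and 9.32 in MYCN KD. Both MYCN KD samples were far above both Ctrl samples, and the MYCN KD replicates were themselves apart. The recovered reads behind it were 63 (exact Poisson 95% interval 48.4 to 80.6) and 41 (29.4 to 55.6) in Ctrl. In MYCN KD they were 463 (421.8 to 507.2) and 682 (631.8 to 735.2). These intervals cover counting error only and treat the adjusted counts as raw reads. The mean went from 0.661 ± 0.168 to 8.03 ± 1.83 (SD, n = 2 per group), a ratio of 12.1. On the log2(RPKM + 1) scale, which understates the change of a gene this low, the difference was 2.43 (SE 0.18, 95% interval 1.90 to 2.96, limma adjusted p = 0.00497). This log2 fold change ranked 1 among 11411 tested genes. MYC entered that set through its MYCN KD values, since its Ctrl mean lay below the filter of 1. With no filter its limma adjusted p was 0.0100. With limma voom on the recovered reads, without that pseudocount, the log2 fold change was 3.59. The longest run of bases that the canonical transcripts of MYC and MYCN share is 17.

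MYCL, the third MYC gene, was close to silent in both groups. Its RPKM was 0.0947 and 0.114 in Ctrl against 0.0834 and 0.0653 in MYCN KD, from 16, 18, 12 and 10 reads. The groups did not overlap, but the Poisson intervals did (9.15 to 25.98 and 10.7 to 28.4 against 6.201 to 21.0 and 4.80 to 18.4). These intervals treat the adjusted counts as raw reads, and no difference is read from counts this low. MYCL (chromosome 1, 40361100 to 40367928, minus strand, 2 exons) lay below the filter and was not tested there. With no filter its limma adjusted p was 0.172.

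Summed over the 3 MYC genes, RPKM was 1068.8 and 1073.7 in Ctrl against 727.0 and 727.4 in MYCN KD. MYC made up 0.0730% and 0.0505% of this sum in Ctrl against 0.926% and 1.28% in MYCN KD. The groups did not overlap in either measure, and MYCN remained from 98.7% to 99.9% of the sum. The gain in mean RPKM of MYC was 2.096% of the loss of MYCN. The ratio of the mean sums was 0.679, against 0.672 for MYCN alone. For each of 5 such sums and ratios, an exact two-sided permutation test of 2 against 2 samples gave p = 0.3333, the smallest it allows, so none can reach 0.05 (each also 0.3333 after adjustment over the 5).

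MAX, the obligate partner of MYC proteins and of their competitors, lies on chromosome 14 from 65472892 to 65569413 on the minus strand, with 5 exons. Its RPKM was 35.8 and 34.5 in Ctrl against 24.4 and 25.3 in MYCN KD. Both knockdown samples were lower, with a gap much wider than the replicate spread. The mean went from 35.1 ± 0.923 to 24.9 ± 0.656 (SD, n = 2 per group), a ratio of 0.708, and the log2 fold change was -0.48 (SE 0.0430, 95% interval -0.61 to -0.35, limma adjusted p = 0.00640). Of its exon bases, 822 (13.1%) are shared with FNTB on the opposite strand, a farnesyltransferase subunit gene whose own log2 fold change was -0.14.

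Because MAX and MYCN fell by similar factors, their proportion changed little. The summed MYC genes stood at 29.9 and 31.2 times the RPKM of MAX in Ctrl and at 29.8 and 28.7 times in MYCN KD. The means were 30.5 ± 0.901 and 29.2 ± 0.760 (SD, n = 2 per group), and the gap between the nearest samples of the 2 groups was smaller than the gap within either group. Under quantile normalization the difference of this ratio, -1.27 here, turned to 2.35. RNA levels of partners do not give the number of protein dimers, which was not measured.

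**Figure D2:**
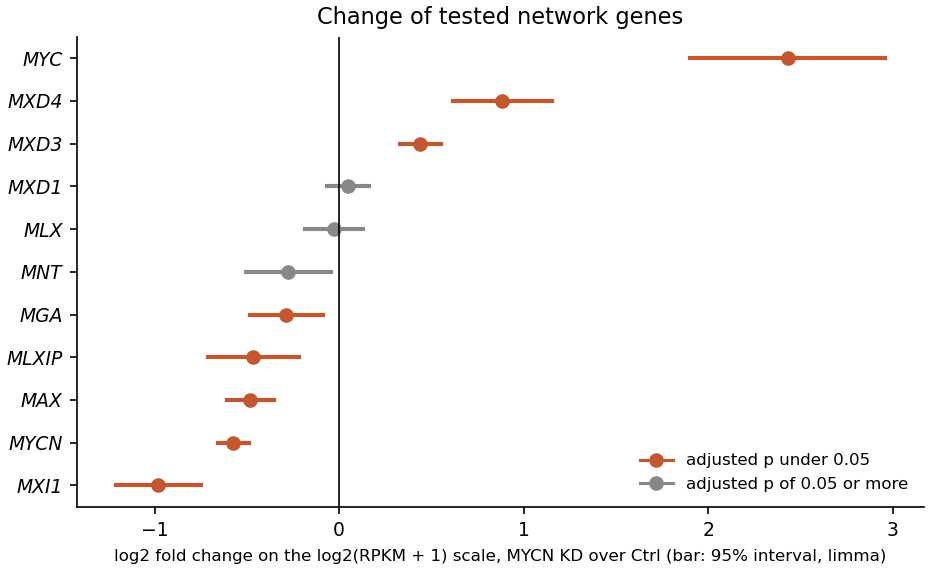
Log2 fold change of MYCN KD over Ctrl on the log2(RPKM + 1) scale with its 95% interval from limma, for the 9 tested network genes and MGA and MLXIP. MYC (2.43), MXD4 (0.88) and MXD3 (0.44) lay above 0 and MXI1 (-0.98), MYCN (-0.57) and MAX (-0.48) below, while the intervals of MXD1 and MLX crossed 0.

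MXD4 encodes a MAX partner that opposes MYC and is known from differentiating cells. Its RPKM was 14.4 and 12.8 in Ctrl against 24.4 and 27.4 in MYCN KD. Every knockdown value exceeded every control value. The mean went from 13.6 ± 1.14 to 25.9 ± 2.08 (SD, n = 2 per group), a ratio of 1.91, with a log2 fold change of 0.88 (SE 0.0918, 95% interval 0.61 to 1.16, limma adjusted p = 0.00793). The gene lies on chromosome 4 from 2249159 to 2263836 on the minus strand, with 6 exons.

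MXD3, a MAX partner expressed in cycling cells during S phase, also rose, by less. Its RPKM was 5.77 and 5.77 in Ctrl against 8.18 and 8.19 in MYCN KD, with almost no replicate spread. Counting error alone was wider: replicate 1 had 623 recovered reads in Ctrl (exact Poisson 95% interval 575.0 to 673.9). In MYCN KD replicate 1 had 751 (698.2 to 806.7). These intervals treat the adjusted counts as raw reads. The ratio of means was 1.42 and the log2 fold change 0.44 (SE 0.0381, 95% interval 0.33 to 0.55, limma adjusted p = 0.00612). MXD3 (chromosome 5, 176728462 to 176739758, minus strand, 6 exons) shares 926 exon bases with RAB24 on its own strand and 1148 with PRELID1 on the other. Those neighbors had log2 fold changes of -0.25 and -0.52, opposite in sign to that of MXD3.

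MXI1, the MXD2 gene and like MXD1 a recruiter of SIN3, fell by the highest factor of the network. Its RPKM was 7.36 and 8.22 in Ctrl against 3.63 and 3.28 in MYCN KD. The groups were far apart. The mean went from 7.79 ± 0.606 to 3.46 ± 0.252 (SD, n = 2 per group), a ratio of 0.444, with a log2 fold change of -0.98 (SE 0.0789, 95% interval -1.21 to -0.75, limma adjusted p = 0.00556). It lies on chromosome 10 from 111967363 to 112047123 on the plus strand, with 6 exons, and no other gene listed in the samples shared its exon bases.

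MXD1 (MAD1), the founding member of the MXD group, is induced in many cells as they stop dividing. Its RPKM was 2.78 and 2.83 in Ctrl against 2.96 and 2.92 in MYCN KD, so both knockdown samples were slightly higher, a direction that turned under quantile normalization (-0.05 on the log2 scale). The log2 fold change of 0.05 (SE 0.0382, 95% interval -0.06 to 0.16) did not pass the test (limma adjusted p = 0.346). MXD1 lies on chromosome 2 from 70124820 to 70170077 on the plus strand, with 6 exons.

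MNT, a broadly expressed MAX partner that opposes MYC in dividing cells as well, had an RPKM of 8.43 and 7.61 in Ctrl against 6.13 and 6.77 in MYCN KD. Both knockdown samples were lower than both control samples, although each group was spread. The log2 fold change of -0.28 (SE 0.0785, 95% interval -0.51 to -0.04) did not pass (limma adjusted p = 0.0604). Without Ctrl replicate 2 the log2 fold change was -0.34, from a fit that assumes that the lone sample varies like the other genes and samples. In this and every fit below with a sample left out, a call mostly follows the size of the change. MNT lies on chromosome 17 from 2287367 to 2304398 on the minus strand, with 6 exons.

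Together the 5 genes that encode competitors for MAX summed to an RPKM of 38.7 and 37.2 in Ctrl against 45.3 and 48.5 in MYCN KD. The knockdown samples were higher, with means of 38.0 ± 1.08 and 46.9 ± 2.27 (SD, n = 2 per group; exact permutation p = 0.3333). The rise of the sum rested on MXD4. Its gain was 1.37 times the gain of the sum, and without MXD4, a split made after its values were seen, the sum was 24.3 and 24.4 in Ctrl against 20.9 and 21.2 in MYCN KD, lower in both knockdown samples. Within the sum MXD4 went from 37.1% and 34.3% to 53.9% and 56.4%, while MXI1 went from 19.0% and 22.1% to 8.02% and 6.75%. MNT went from 21.8% and 20.5% to 13.5% and 14.0%.

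Set against the MYC genes, the competitors' summed RPKM was 0.0362 and 0.0346 of the MYC sum in Ctrl against 0.0623 and 0.0667 in MYCN KD. Both knockdown ratios were above both control ratios, by a factor of 1.82 in the means (exact permutation p = 0.3333). In every sample the MYC genes still outweighed the competitors, and MYCN alone outweighed all other network genes.

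**Figure D3:**
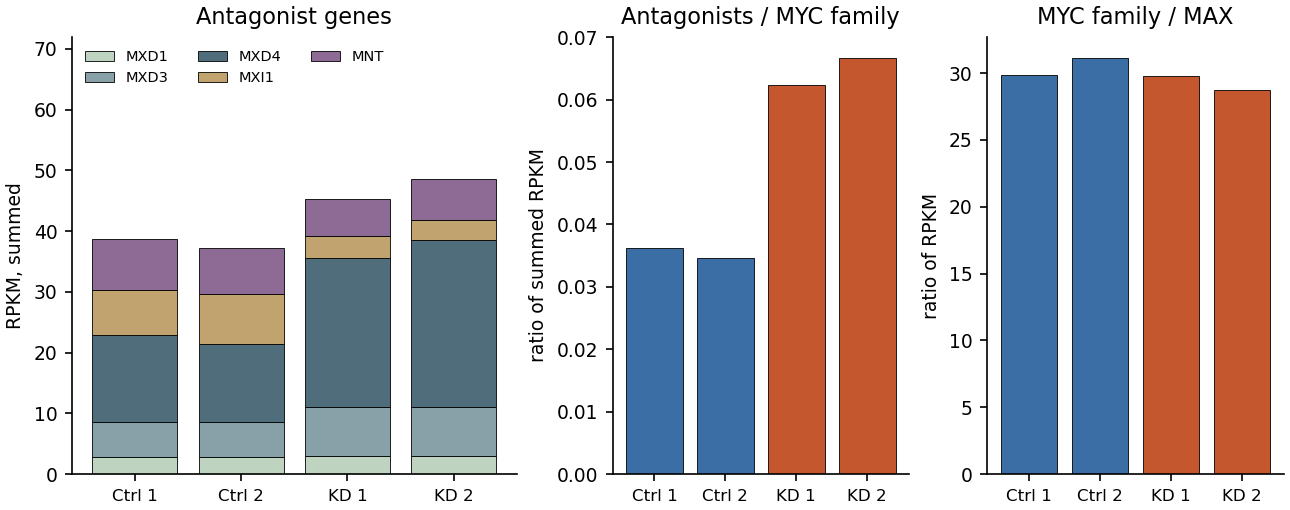
Left, stacked RPKM of the 5 genes encoding MAX competitors in each sample; middle, their sum over the summed MYC genes; right, the summed MYC genes over MAX. The MXD4 share grew and the MXI1 share shrank, the middle ratio went from 0.0346 and 0.0362 to 0.0623 and 0.0667, and the right ratio stayed between 28.7 and 31.2.

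MLX, the partner of MLXIP and MLXIPL, had an RPKM of 56.8 and 53.6 in Ctrl against 52.7 and 55.7 in MYCN KD. The groups overlapped, and the log2 fold change of -0.03 (SE 0.0531, 95% interval -0.18 to 0.13) did not pass (limma adjusted p = 0.706). The interval leaves out a change as large as that of MAX. MLX lies on chromosome 17 from 40719090 to 40725257 on the plus strand, with 8 exons, of whose bases 775 (18.2%) are shared with PSMC3IP on the opposite strand.

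The E-box letters CACGTG stand in 3 of the 12 RefSeq windows of 250 bases before a start that 9 of the network genes have, 1 each for MXD4, MNT and MLX, and in 6.34% of 35116 windows of all genes. The motif reads the same on both strands and is capitalised in the windows below, which are shown because they belong to genes with 3 different outcomes: MXD4 rose, MNT did not pass the test, and MLX overlapped between the groups. The windows (GRCh38.p14) are chr4:2262110-2262359 on the minus strand for MXD4, chr17:2401061-2401310 on the minus strand for MNT and chr17:42566850-42567099 on the plus strand for MLX. The motif starts 238, 193 and 50 bases before the start site. A match of letters is a description and does not show binding, and the windows of MYCN, MYCL, MAX, MXD1, MXD3 and MXI1 do not hold these letters.
MXD4: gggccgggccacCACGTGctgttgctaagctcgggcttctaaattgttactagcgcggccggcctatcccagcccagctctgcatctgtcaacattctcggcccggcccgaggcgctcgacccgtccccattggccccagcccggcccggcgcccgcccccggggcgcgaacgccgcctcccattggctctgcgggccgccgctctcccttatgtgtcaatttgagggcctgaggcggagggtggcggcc
MNT: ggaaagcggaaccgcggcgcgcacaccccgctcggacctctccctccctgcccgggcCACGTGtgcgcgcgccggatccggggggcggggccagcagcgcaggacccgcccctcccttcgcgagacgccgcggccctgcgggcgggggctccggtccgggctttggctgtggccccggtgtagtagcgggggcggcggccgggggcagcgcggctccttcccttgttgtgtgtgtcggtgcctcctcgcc
MLX: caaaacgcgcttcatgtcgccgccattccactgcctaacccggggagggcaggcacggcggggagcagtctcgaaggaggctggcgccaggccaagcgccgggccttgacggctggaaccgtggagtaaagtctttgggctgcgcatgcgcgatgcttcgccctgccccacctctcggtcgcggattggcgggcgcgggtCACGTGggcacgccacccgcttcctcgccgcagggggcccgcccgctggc

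By level per gene length, the order of the means in Ctrl was MYCN, MLX, MAX, MXD4, MNT, MXI1, MXD3, MXD1, MYC and MYCL. Only MNT and MXI1 overlapped between neighbors in that order. In MYCN KD the order was MYCN, MLX, MXD4, MAX, MXD3, MYC, MNT, MXI1, MXD1 and MYCL, in which MXD4 and MAX overlapped, as did MXD3 and MYC, and MYC and MNT. MYC therefore moved from below MXD1 to a level among MXD3 and MNT. MXI1 moved from beside MNT to a place below it.

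**Figure D4:**
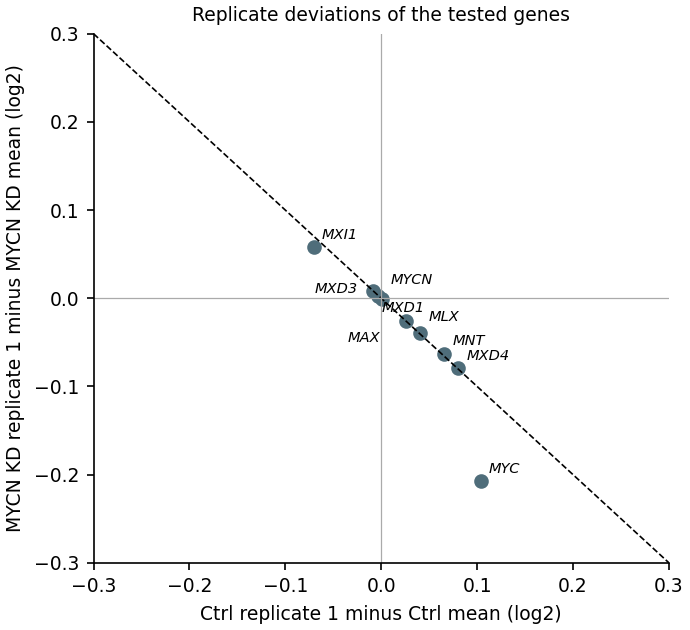
Deviation of replicate 1 from its group mean in log2(RPKM + 1), Ctrl on the horizontal and MYCN KD on the vertical axis, for the 9 tested network genes, with a dashed line for exact mirror images. MXD4 lay at 0.080 and -0.079, and MYC, at 0.10 and -0.21, was farthest from the line.

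The other network genes fixed for description were MGA, MLXIP and MLXIPL. MLXIP, the MLX partner that senses glucose metabolites, had an RPKM of 17.8 and 16.0 in Ctrl against 11.3 and 12.6 in MYCN KD, with a log2 fold change of -0.47 (limma adjusted p = 0.0227). MGA, a large MAX partner that acts in a polycomb-type complex, had 5.50 and 6.01 in Ctrl against 4.72 and 4.35 in MYCN KD, with -0.29 (limma adjusted p = 0.0392), a call lost with no filter on low values (0.0633), after rescaling to the same total (0.0897), and without any 1 of the 4 samples. Both were lower in both knockdown samples. MLXIPL was at 1 read in 1 Ctrl sample.

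The transcripts beside the MYC genes did not move as one. MYCNOS, the antisense transcript of MYCN, had an RPKM of 27.5 and 28.1 in Ctrl against 52.6 and 51.5 in MYCN KD, with a log2 fold change of 0.88 (limma adjusted p = 0.00359), opposite in sign to MYCN. Without a stated strand setting, reads on the 98 bases that they share cannot be assigned to either. PVT1, the long noncoding RNA gene next to MYC, had 5.69 and 6.37 in Ctrl against 7.86 and 7.08 in MYCN KD, higher in both knockdown samples but not past the threshold (0.27, limma adjusted p = 0.0704). MYCNUT was listed at 0 in all samples. So was EIF4A1, a translation factor that cells generally express, so a listed 0 need not mean absence.

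Of 17 genes of the SIN3 corepressor, the effector of the MXD proteins, all 17 were tested, with 4 lower, 1 higher and 12 not past the threshold. Their median log2 fold change was -0.10, beside 0.03 over all tested genes. The 4 of 17 lower is close to the 22.8% of all tested genes. The 1 of 17 higher is below the 25.3% of all tested genes. Among the genes past the threshold the largest changes were those of FAM60A, a SIN3-associated protein gene (-0.77, limma adjusted p = 0.0178), RBBP4, a histone chaperone subunit (-0.44, 0.0118), and of the deacetylase gene HDAC1 (-0.31, 0.00888), whose call was lost without MYCN KD replicate 2 (0.0519). Named after the values were seen, the scaffold SIN3A was also lower (-0.17) and ARID4A was the 1 gene that was higher (0.29). Both of these calls were lost without any 1 of the 4 samples, and SAP30 was lower in both knockdown samples but did not pass (-0.56).

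Of 10 genes of the MGA complex 9 were tested, with 3 lower, 1 higher and 5 not past the threshold, and a median of -0.25. Over all tested genes 22.8% were lower and 25.3% higher. With 9 genes no difference from these shares is read. The polycomb ring finger gene PCGF6 had a log2 fold change of -0.80 (limma adjusted p = 0.0137). TFDP1, the dimer partner of E2F factors, had -0.70 (0.00359), and WDR5, named after its values were seen, had -0.35. RYBP, a RING1 and YY1 binding protein gene, rose, with an RPKM of 17.3 and 20.4 in Ctrl against 39.7 and 33.8 in MYCN KD (0.93, limma adjusted p = 0.0129).

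Textbook targets of MYC proteins were largely lower. Of 20 such genes 17 were tested, 15 were lower, 1 was higher and 1 did not pass, where 22.8% of all tested genes were lower and 25.3% higher, and the median log2 fold change was -0.80. The nucleolar protein gene NCL went from 603.8 and 654.7 RPKM in Ctrl to 304.6 and 282.4 in MYCN KD (-1.10, limma adjusted p = 0.00422). NPM1, which encodes nucleophosmin, had -1.05 (0.00383), and ODC1, the first enzyme of polyamine synthesis, had -0.99 (0.00359). Named after the values were seen, lactate dehydrogenase A (LDHA) was the 1 higher gene (0.24), a call lost without any 1 of the 4 samples. The cap-binding factor EIF4E did not pass (-0.36, limma adjusted p = 0.0528), but did under quantile normalization (0.0201). With 1 sample left out its log2 fold change ranged from -0.45 to -0.27. TERT, CCND2 and EIF4A1 lay below the filter.

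Of 3 targets of the MLX partners, TXNIP, an inhibitor of glucose uptake, went from an RPKM of 44.4 and 42.6 to 52.8 and 54.9 (0.30, limma adjusted p = 0.0146). ARRDC4, a related arrestin gene, went from 6.17 and 6.29 to 7.36 and 7.23 (0.20, limma adjusted p = 0.0286). Both calls were lost in part of the fits with a sample left out, TXNIP without replicate 2 of either group (0.0544 and 0.0687) and ARRDC4 without any 1 of the 4 samples (0.250 to 0.339). ARRDC4 was also lost under quantile normalization (0.0568). PKLR, the liver pyruvate kinase gene, was below 0.03 RPKM throughout and was not tested.

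Of 9 other E-box factors of the bHLH-zip class 7 were tested, with 4 higher, 1 lower and 2 not past the threshold, where 25.3% of all tested genes were higher and 22.8% lower, and a median of 0.13. TFAP4, itself known as a MYC target, went from an RPKM of 22.8 and 21.3 in Ctrl to 6.56 and 7.02 in MYCN KD (-1.57, limma adjusted p = 0.00359). SREBF2, the regulator of cholesterol synthesis, rose by 0.43 (0.00639) and TFEB, the regulator of lysosome genes, by 0.36 (0.0283), a call lost without replicate 1 of either group (0.0828 and 0.0913). Named after the values were seen, TFE3 (0.27) and SREBF1 (0.13) were the other higher genes. The TFE3 call was lost in 3 of the 4 fits with a sample left out (it held without Ctrl replicate 1) and that of SREBF1 in all 4.

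**Figure D5:**
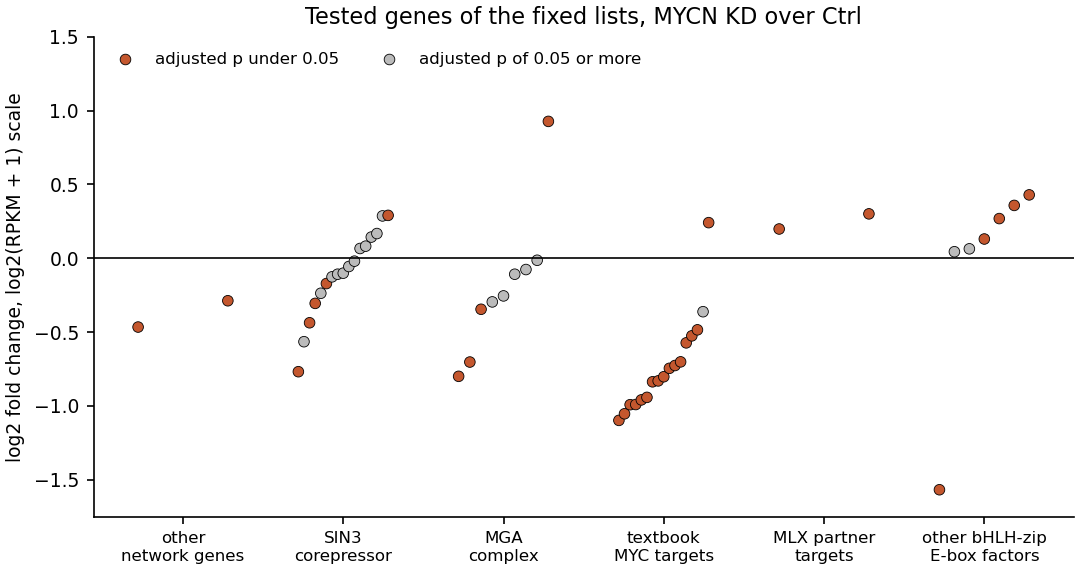
Log2 fold change of the tested genes of 6 lists on the log2(RPKM + 1) scale (orange, limma adjusted p under 0.05; grey, the rest). Of the textbook MYC targets 15 of 17 lay below 0 and passed, whereas the lists of the corepressor, the MGA complex and the other E-box factors held genes on both sides of 0.

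The genes most like MYCN and MYC over the 4 samples were picked by the root mean square difference in log2(RPKM + 1), each gene centred on its own mean. For MYCN they were RPL34, a ribosomal protein gene (0.00274), APEX1, a DNA repair endonuclease gene (0.00282), and ZMAT2 (0.00441). For MYC they were the receptor tyrosine kinase gene LTK (0.148), FNDC5 (0.153) and the Frizzled receptor gene FZD5 (0.179). LTK went from an RPKM of 2.71 and 2.26 to 13.4 and 15.9, and FZD5 from 1.44 and 1.41 to 10.5 and 10.6. With 4 samples in 2 groups this likeness is mostly that of the group difference.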

How the data were processed

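RNA-seq was analysed in 2 Ctrl and 2 MYCN KD samples of BE(2)C cells, grouped by the sample titles. Per the study's methods and the submitters' processing notes, the authors aligned reads to hg19 with HISAT2 2.1.0, counted them with featureCounts, normalized them with DESeq2 and RUVSeq and deposited RPKM values. The RUVSeq variant and number of factors are not given in the sources used here. Totals of reads were recovered from small RNA genes of known length. For all 19908 genes listed above 0, a gene length was found at which the 4 values were whole reads within 1.5 times the rounding of the deposited digits, and the smallest such length was taken. The log2(RPKM + 1) values of 11411 genes whose mean RPKM reached 1 were fitted with limma 3.58.1 (lmFit, eBayes with a trend) in R 4.3.3, with Benjamini-Hochberg adjustment over these genes and a threshold of 0.05. The limma fit and the recovery of reads were tested on simulated data. For limma the simulated replicates were independent, unlike the mirrored ones here, so that test does not check these p-values. Sums were compared by exact permutation tests. Alternatives were pseudocount 0.1, 2 other filters, 2 scalings, eBayes without a trend, a replicate block, voom on recovered reads, and each sample left out.

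The members and lists were chosen with earlier results of these data known. Named were all 10 members, the 3 genes of each list with the largest change past the threshold and groups that did not overlap, every gene of lists of up to 3, and the 3 genes most like MYCN and MYC. Gene positions came from GENCODE 44 on GRCh37 and promoter windows from RefSeq (GRCh38.p14), which held 9 of the 10 members. Other steps used scipy 1.17.1, pandas 2.3.3 and numpy 2.4.6 in Python 3.11.15, and figures matplotlib 3.10.9.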

Additional observations from a re-analysis of the deposited data

How the results depend on the processing

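A crossed replicate block, described below, is not among the alternatives counted for single genes. Of 106 log2 fold changes of the 9 tested members under alternatives, 100 kept their direction and side of the threshold. The exceptions were MXD1 under quantile normalization (-0.0507), MLX under quantile normalization (0.0290), after rescaling to the same total (0.0336) and with 1 sample left out (range -0.0669 to 0.0142), and MNT with 1 sample left out (range -0.34 to -0.21), past the threshold without Ctrl replicate 2. None of these genes passed in the analysis as reported. Fits with a block or a left-out sample take their variance mostly from the other genes. A call kept, lost or gained there mostly follows the size of the change and is a weak check on it. The value of MYCL, -0.04 on the log2 scale, was -0.23 with a pseudocount of 0.1 and -0.0628 under quantile normalization. The difference of the ratio of MYC genes to MAX, -1.27, was 2.35 under quantile normalization, and -1.91 to -0.63 with 1 sample left out. MYCN stayed lower at -0.38 under quantile normalization and -0.51 after rescaling. The cause of these shifts was not tested. Genes called higher numbered 1868 with a mean RPKM of at least 5, where fewer genes are tested and MYC and MXD1 drop out, 2909 with voom (2585 lower), and 2460 to 2781 with 1 sample left out (2153 to 2429 lower). Calls were 52.7% higher as reported, 60.7% after rescaling and 49.2% under quantile normalization, and rescaling moved the median of all genes from 0.03 to 0.08.

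With the replicate number as a block, 2077 genes were higher and 1851 lower, and 3 members were higher and 3 lower, with no member's call changed. The deviations of samples with the same number had a correlation of -0.9845 across tested genes, which are not independent. The values were corrected for unwanted variation before deposit, so this correlation cannot show whether the numbers pair the samples. A crossed replicate block, chosen after seeing the data, called 5910 genes higher and 5262 lower, and 4 members higher and 5 lower. These are all 9 tested members, including MXD1, MNT and MLX, and no call is read from this block. Of 368 values of other named genes, 49 lost their call, 5 gained it (4 of EIF4E, and PVT1 under quantile normalization, adjusted p = 0.0404) and 0 reversed. The block ended 10 of these calls, with limma adjusted p of 0.197 for MGA, 0.0943 for HDAC1, 0.456 for SIN3A, 0.180 for ARID4A, 0.260 for LDHA, 0.0892 for TXNIP, 0.398 for ARRDC4, 0.0902 for TFEB, 0.166 for TFE3 and 0.555 for SREBF1. Rescaling also ended that of SIN3A (0.137), quantile normalization those of ARID4A (0.0828) and SREBF1 (0.0587), and eBayes without a trend that of SREBF1 (0.0519). With 2 samples a group, low counts limit MYCL, and a block or a left-out sample leaves 1 residual degree of freedom.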
